A study of Mus musculus with 12 samples.

Results

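Pressure overload of the left ventricle was compared with sham surgery in 6 mouse libraries, 3 control TAC and 3 control sham, out of 12 in the series. Transverse aortic constriction (TAC) narrows the aortic arch, so that the left ventricle pumps against a raised pressure. All 6 libraries came from the apex of the left ventricle, taken 8 weeks after surgery, and the labels give their genotype as heterozygous for lincRNA-p21, a p53-responsive noncoding transcript whose gene is Trp53cor1. They served as littermate controls of the knockouts. Sham and TAC mice therefore carried the same allele, and the comparison holds no wild-type ventricle; strain, sex and age of the animals are not in the labels. The other 6 libraries, sham and TAC ventricles of global lincRNA-p21 knockouts, entered the estimate of the spread and serve below as a second TAC comparison. Of 56350 genes, 13916 reached 10 in 3 or more of the 12 libraries and were kept. A gene under 10 in every sham library was thus kept only if it was higher in TAC libraries. Values are normalised read counts, that is, reads scaled by a size factor for each library. A change is the TAC mean minus the sham mean of log2(value + 1), with its SE, and a gene passed when its adjusted p was under 0.05. This scale understates the change of genes with few reads.

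A ventricle under lasting pressure load enlarges its muscle cells: it adds sarcomeres, strengthens the attachments between sarcomere, membrane and neighbouring cell, and lays down a denser microtubule network. Mechanical load is sensed in part through the Hippo pathway, whose kinases keep the coactivators YAP and TAZ away from TEAD transcription factors at their MCAT sites. The return of fetal muscle genes, the growth of the matrix and the decline of oxidative metabolism are well known in this setting and are touched here only briefly.

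The control libraries held between 10323605 and 12484101 reads assigned to genes. Among 7 defining markers of ventricular muscle cells the lowest value in any control library was that of Ryr2 in a sham ventricle, 8766, so all 7 were abundant in the labelled tissue. Reads of Trp53cor1 numbered 2, 0 and 2 in the sham and 4, 0 and 3 in the TAC libraries, too few to compare. Control sham replicate 3 stood apart on the second principal component (score −46.8, 14.4% of the variance). It also had the lowest share of mitochondrial reads, 12.5%, against 15.5 to 18.7% in the other control libraries. No label ties a library to an animal, and p-values measure only the spread between these samples, which may be technical. The strand setting of the counting is not given in the sources used here, and genes that overlap, lie antisense to each other or have close paralogs are uncertain.

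TAC changed 3006 of the 13916 genes (21.6%), with 1533 higher (11.0%) and 1473 lower (10.6%) than in sham ventricles. The values of sham and TAC libraries did not overlap for 4934 genes (35.5%). The count of genes passed depended on single libraries. It was 1934 without control TAC replicate 1, 1549 without control TAC replicate 2 and 3656 without control sham replicate 1. The fetal and hypertrophic list had 17 of 22 members higher and 1 lower, the matrix list 32 of 54 higher and 1 lower, and 64 of 72 nuclear subunits of oxidative phosphorylation were lower.

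The direction of change followed the length of the transcript. Genes with transcripts under 1 kb had a median change of −0.41 (960 genes, 26.8% lower and 3.12% higher), and genes with transcripts over 8 kb a median of 0.51 (766 genes, 44.9% higher and 0.914% lower). The 5 length classes between them lay in order, with medians of −0.25, −0.06, 0.04, 0.17 and 0.33. Across genes, Spearman's rho between change and transcript length was 0.418, a description only, since genes of one library share its depth and its RNA. The trend was not limited to the short respiratory and ribosomal transcripts. Among genes under 1 kb, 850 outside the oxidative phosphorylation, ribosome and matrix lists had a median of −0.37, next to −0.80 for 43 respiratory subunits, −0.55 for 24 mitochondrial and −0.44 for 42 cytosolic ribosomal proteins.

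**Figure D1:**
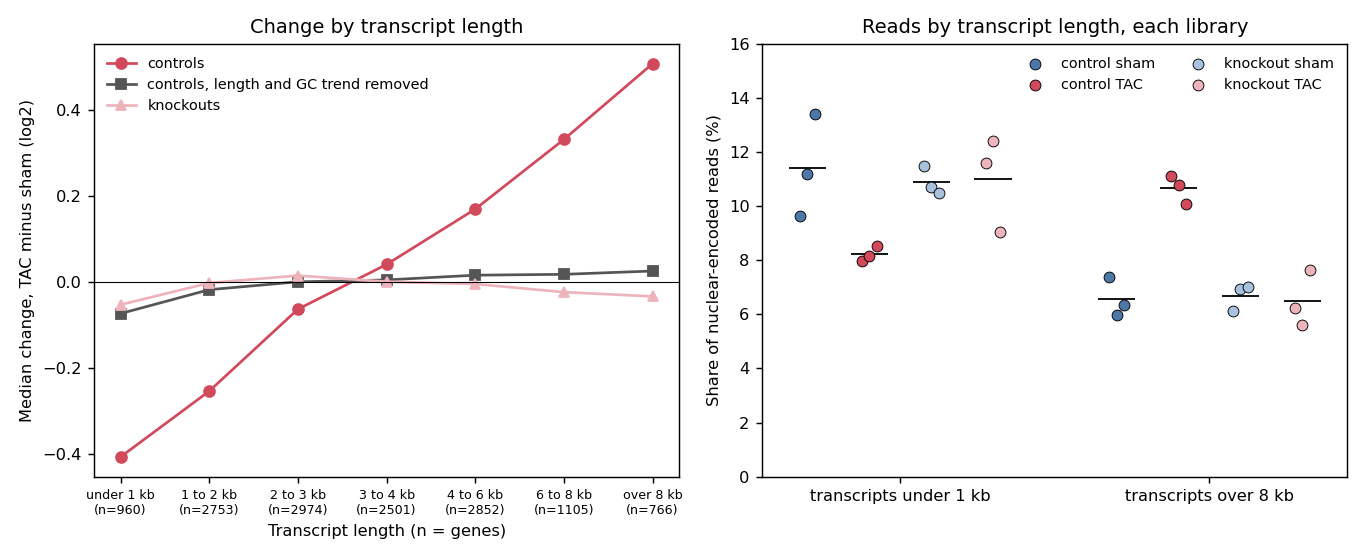
Left, median change (TAC minus sham, log2 scale) of genes in 7 classes of transcript length, for controls with the trend on length and GC content kept or removed, and for knockouts. Right, share of nuclear-encoded reads (percent) on genes with transcripts under 1 kb and over 8 kb, 1 point per library with the group mean as a line; the 3 control TAC libraries lie at 7.98 to 8.53% and 10.1 to 11.1%, outside the range of the other 9.

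Every control TAC library showed the trend. Transcripts under 1 kb took 9.64%, 11.2% and 13.4% of nuclear-encoded reads in the 3 sham ventricles and 7.98%, 8.17% and 8.53% in the 3 TAC ventricles. Transcripts over 8 kb took 7.37%, 5.99% and 6.34% after sham and 11.1%, 10.8% and 10.1% after TAC. Neither share overlapped between the groups, and the two-sided exact permutation p was 0.1 for both, the smallest that 3 against 3 libraries allow. For each library the rho of transcript length with its difference from the mean of all 12 was 0.426, 0.347 and 0.33 after TAC and 0.14, −0.334 and −0.262 after sham (exact p = 0.1). In the knockouts TAC gave no such trend over all genes (rho −0.0173); their 6 libraries ran from −0.349 to 0.141, the highest being knockout TAC replicate 3.

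Length was not the sole feature that moved with the change. GC content followed it with the opposite sign (rho −0.455 in controls and −0.355 in knockouts). Genes were put in 4 equal classes by each feature. In the class lowest in GC the median change went from −0.02 in the shortest transcripts to 0.49 in the longest. In the class highest in GC it went from −0.49 to −0.03. Both parts of the messenger counted: rho was 0.341 for coding length and 0.351 for untranslated length, and among genes of the shortest coding class the median went from −0.42 for the shortest untranslated regions to 0.04 for the longest. The trend was present at each level of expression, with medians from −0.14 to 0.30 in the class with the lowest mean and from −0.42 to 0.33 in the class with the highest. Its cause was not tested.

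Of 3 long nuclear RNAs looked at, 2 were higher after TAC and 1 did not pass. Malat1, a long noncoding RNA of nuclear speckles, had 13501, 8171 and 14663 counts after sham and 37317, 35148 and 29453 after TAC. All TAC values lay above all sham values, a change of 1.53 ± 0.24 (limma-trend, adjusted p = 0.00093). Kcnq1ot1, an imprinted nuclear RNA read antisense to a potassium channel gene, went from 85.2, 49.4 and 73.8 to 227, 187 and 231 (1.65 ± 0.23, adjusted p = 0.00033). Neat1, the scaffold of paraspeckles, did not pass (0.06 ± 0.33, adjusted p = 0.92), with its highest value, 22214, in control sham replicate 3. These 3 were chosen after their values were seen.

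Loci annotated within the span of another gene lay far below that host gene in level, but their change with TAC was mostly the larger. They belong to the GENCODE classes TEC and sense_intronic, of which 99 tested loci lay between the ends of a protein-coding gene on the same strand. Whether they overlap exons of the host was not checked. Their median change was 1.01, with 23 higher, 1 lower and the others not passing, while that of the host genes was 0.13, and 88 of the 99 exceeded their host. Loci that pass the filter on low values only through the TAC libraries had to be high there. Among the 60 that passed without any control TAC library the median was 0.71 (12 higher and 1 lower), or 0.57 once the trends on length and GC were taken out, the host median was 0.12, and 52 exceeded their host. In the knockouts the median of these 60 was −0.03.

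**Figure D2:**
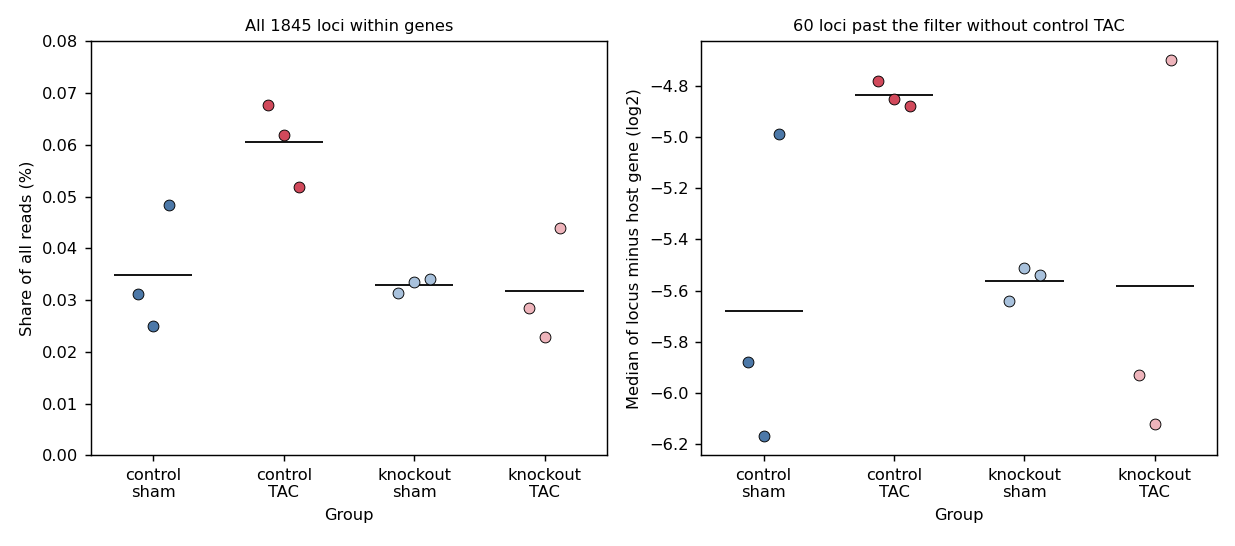
Left, share of all reads (percent) on 1845 annotated TEC and sense_intronic loci within protein-coding genes, with no filter on low values; the control TAC libraries lie at 0.0518 to 0.0677%. Right, median over 60 loci of the log2 value of a locus minus that of its host gene; control sham replicate 3 and knockout TAC replicate 3 stand well above the other libraries of their groups. Points are libraries and lines group means.

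Summed over all 1845 such loci and with no filter, their share of reads was 0.0312%, 0.0249% and 0.0484% after sham and 0.0677%, 0.0619% and 0.0518% after TAC. These values did not overlap, with control sham replicate 3 close to the lowest TAC library. Over the 60 loci alone the groups did overlap, at 0.0208%, 0.0172% and 0.032% after sham and 0.0343%, 0.0318% and 0.0289% after TAC. Knockout TAC replicate 3 was the highest of the knockouts in both shares, at 0.044% over all 1845 loci and 0.0311% over the 60. Single loci showed the pattern more plainly. Gm37084 within Mapkapk2, which encodes a stress-activated kinase, went from 9.59, 10.4 and 5.09 to 57.3, 86.5 and 40.1 (2.72 ± 0.40, adjusted p = 0.00049), and Mapkapk2 itself differed by 0.13 ± 0.15 (adjusted p = 0.54). Gm47493 within the ryanodine receptor gene Ryr2 changed by 2.55 ± 0.49 (adjusted p = 0.0025) against 1.12 ± 0.23 for Ryr2. These loci were chosen after their values were seen, and the part of RNA quality in them was not tested.

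Because so many changes followed length, most lists of genes are given with a second count from a fit in which the trend of every library on transcript length and GC content was removed first, called the trend-removed fit. It passed 1222 of 13906 genes (8.79%), 595 higher (4.28%) and 627 lower (4.51%). Of these, 953 had passed before, 952 in the same direction. The removal was partial. After it, rho of the change with transcript length was 0.0334, but with coding length still 0.176. Among genes under 1 kb 7.72% were lower and 2.92% higher. Any effect of TAC that itself follows length or GC content was subtracted with the trend. Counts are of members tested, with the number listed beside them. Among all genes 11.0% were higher and 10.6% lower in the main fit, the shares to set beside its counts. Leaving out control TAC replicate 2 lowered most list counts and leaving out control sham replicate 1 raised most of them.

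**Figure D3:**
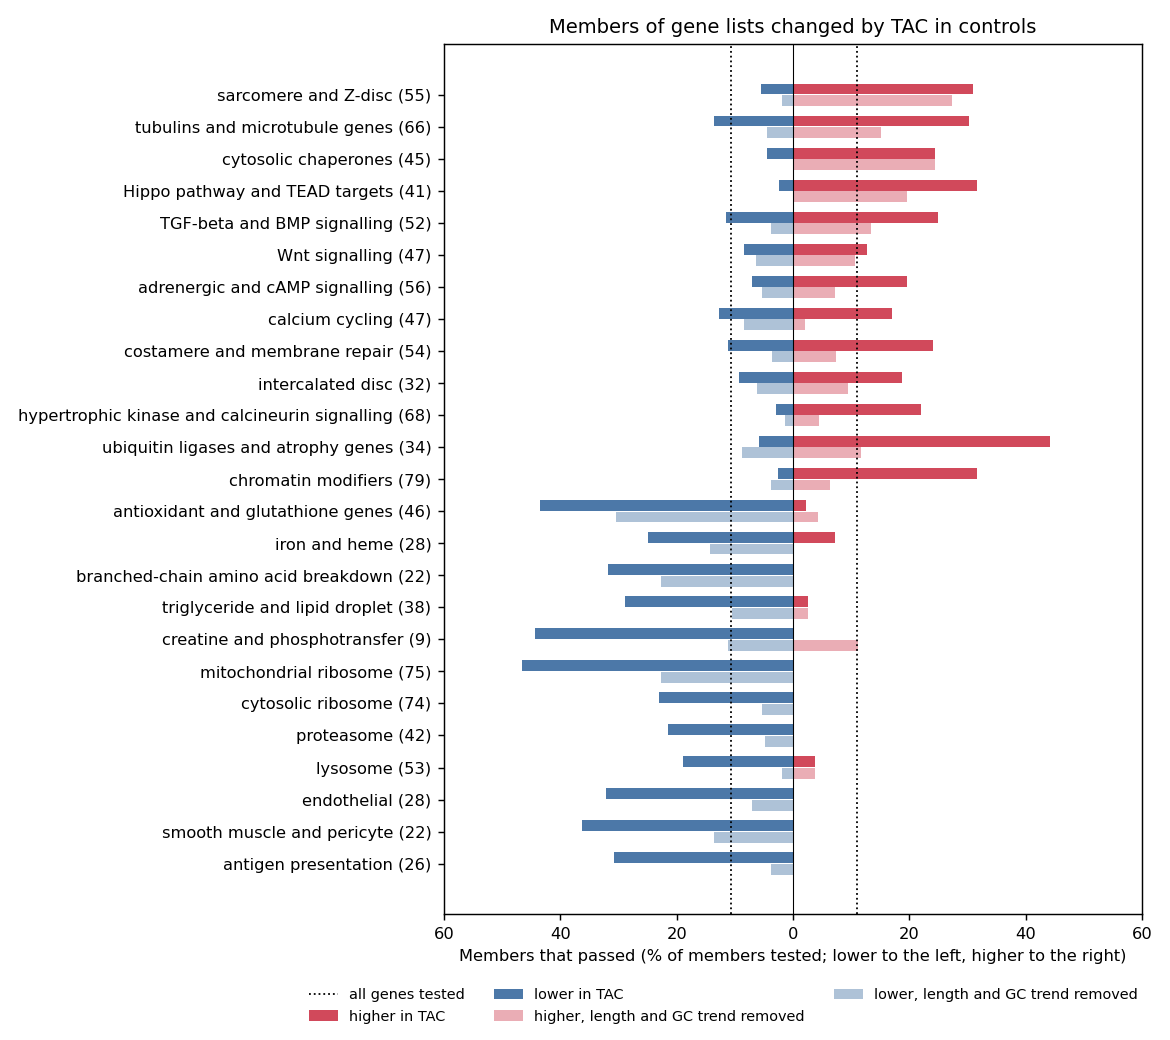
Share of tested members (percent) of 25 gene lists that passed higher (right) or lower (left) in control TAC ventricles; dark bars give the deposited values, pale bars the fit with the length and GC trend removed, and dotted lines the shares among all genes tested (11.0% and 10.6%). The dotted lines hold for the dark bars only, since in the trend-removed fit 4.28% of all genes were higher and 4.51% lower. Sarcomere, chaperone and Hippo bars stay long after removal, while chromatin and ubiquitin ligase bars shorten.

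Of 55 sarcomere and Z-disc genes tested (59 listed), 17 were higher, 3 lower and 35 did not pass, and 15 were higher and 1 lower in the trend-removed fit (medians 0.28 and 0.25). The count higher ran from 12 without control TAC replicate 2 to 21 without control sham replicate 1. Mybpc2, the fast skeletal myosin-binding protein C (chromosome 7, 44501699 to 44524656), had 205, 265 and 215 counts after sham and 580, 656 and 1037 after TAC. Each TAC library was above each sham library, and the change was 1.69 ± 0.18 (adjusted p = 4.2e-05; trend-removed 1.81). Ankrd23, a titin-binding stress protein of the I-band, went from 641, 507 and 347 to 1934, 1533 and 1264 (1.68 ± 0.21, adjusted p = 0.00016; trend-removed 1.96). Flnc, the muscle filamin that crosslinks actin at the Z-disc, rose by 1.41 ± 0.22 (adjusted p = 0.0008), and Neb, the thin filament ruler of skeletal muscle, went from 48, 7.6 and 22 to 129, 194 and 204 (3.02 ± 0.47, adjusted p = 0.00093).

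Titin shows how far a single gene could follow the trend. Ttn, the elastic spring of the sarcomere and, at 106824 bases, the longest transcript among the genes named here, had 49416, 32310 and 27736 counts after sham and 151091, 149887 and 117843 after TAC. The groups did not overlap, and the change of 1.97 ± 0.24 (adjusted p = 0.00015) shrank to 0.74 (adjusted p = 0.0041) in the trend-removed fit. Short genes of the ventricular muscle list went down instead. Tnni3, the cardiac inhibitory troponin, fell from 60529, 69886 and 85724 to 33917, 36694 and 37639 (−0.98 ± 0.14, adjusted p = 0.00033; trend-removed −0.56, adjusted p = 0.0014). Myl2, the ventricular regulatory light chain, changed by −0.61 ± 0.15 (adjusted p = 0.011), a call lost without control TAC replicate 1 (0.0543) and in the trend-removed fit (−0.35, adjusted p = 0.051).

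The MCAT letters that TEAD factors bind were searched in promoters. Promoters were the 300-base RefSeq windows around the start (GRCm38.p6), which matched 10446 tested genes. A gene counted when any of its windows held CATTCC or its complement GGAATG. This was so for 14.7% of all matched genes and for 12 of 42 sarcomere and Z-disc genes (28.6%). Among the 12 of these 42 that were higher, 5 counted. Among all 1150 genes higher with TAC that had a window the share was 14.4%. Windows of 3 genes described above that hold the motif are printed 5′ to 3′ along the gene, with the motif in capitals, to show its place. Ankrd23 and Flnc have 2 windows each, of which only a window with the motif is printed. The letters are a match and not a measured site.
Mybpc2, chr7:44524620-44524919, minus strand: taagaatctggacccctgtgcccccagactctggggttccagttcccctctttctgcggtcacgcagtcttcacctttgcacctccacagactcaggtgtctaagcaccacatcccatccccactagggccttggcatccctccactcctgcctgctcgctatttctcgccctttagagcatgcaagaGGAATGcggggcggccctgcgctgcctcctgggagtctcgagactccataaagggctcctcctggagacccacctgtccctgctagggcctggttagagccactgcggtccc
Ankrd23, chr1:36535690-36535989, minus strand: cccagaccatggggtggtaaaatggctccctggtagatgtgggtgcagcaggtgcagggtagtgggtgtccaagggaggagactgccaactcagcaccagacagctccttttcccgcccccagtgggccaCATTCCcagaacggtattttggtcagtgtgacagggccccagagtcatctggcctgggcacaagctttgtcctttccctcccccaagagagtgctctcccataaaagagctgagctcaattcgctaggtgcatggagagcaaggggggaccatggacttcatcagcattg
Flnc, chr6:29432903-29433202, plus strand: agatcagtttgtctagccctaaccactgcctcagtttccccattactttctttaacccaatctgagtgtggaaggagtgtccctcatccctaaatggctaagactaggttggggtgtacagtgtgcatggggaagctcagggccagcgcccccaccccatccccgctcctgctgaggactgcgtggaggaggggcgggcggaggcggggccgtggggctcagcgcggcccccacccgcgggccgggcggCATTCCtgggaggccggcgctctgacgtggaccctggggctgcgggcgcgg

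Of the Hippo pathway and TEAD target genes, 13 of 41 tested (43 listed) were higher and 1 lower, and 8 were higher and 0 lower in the trend-removed fit. The count higher lay between 8 without control TAC replicate 2 and 17 without control sham replicate 1. Ankrd1, a stretch-induced titin-binding cofactor and TEAD target, had the smallest p of the list, with 8339, 12076 and 7553 counts after sham and 47558, 65538 and 47204 after TAC (2.53 ± 0.19, adjusted p = 1.4e-06; trend-removed 2.54). Amot, an angiomotin that holds YAP in the cytoplasm, went from 218, 201 and 124 to 522, 608 and 400 (1.51 ± 0.21, adjusted p = 0.00029; trend-removed 1.14). Tgfb2, a TGF-beta ligand counted in the list as a target, rose from 115, 115 and 93.3 to 274, 385 and 378 (1.66 ± 0.17, adjusted p = 2.3e-05). For all 3 genes the TAC values lay above every sham value. The MCAT letters stood in the promoter windows of 16 of 32 genes of this list and of 3 of the 11 that were higher.

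Microtubule genes changed in both directions. Of 66 tested (69 listed), 20 were higher and 9 lower; in the trend-removed fit 10 were higher and 3 lower. Without control TAC replicate 2 the counts were 13 and 5. Dst, the giant dystonin that ties microtubules to other filaments, went from 6034, 4196 and 4122 to 16651, 16524 and 12870 (1.69 ± 0.19, adjusted p = 5.4e-05; trend-removed 0.93, adjusted p = 0.00018). Clip1, a plus-end tracking protein, went from 3031, 2883 and 2802 to 5807, 7526 and 6053 (1.14 ± 0.13, adjusted p = 5.4e-05). Kif5b, the heavy chain of conventional kinesin, went from 1260, 1002 and 513 to 2982, 3366 and 2610 (1.78 ± 0.24, adjusted p = 0.00037). None of the 3 overlapped between sham and TAC. Map4, the main microtubule-associated protein of muscle cells, rose by 0.61 ± 0.12 (adjusted p = 0.0034), and Kif1a, a vesicle kinesin of neurons, by 2.09 ± 0.47 (adjusted p = 0.0061). Among the genes that fell were Ttll1, a subunit of a tubulin polyglutamylase, from 1309, 1346 and 1297 to 718, 509 and 611 (−1.12 ± 0.14, adjusted p = 0.00012; trend-removed −0.94), and Tuba4a, an alpha-tubulin made without the carboxy-terminal tyrosine, by −0.60 ± 0.13 (adjusted p = 0.005). Map4, Kif1a and Tuba4a were picked after their values were seen.

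Of 45 cytosolic chaperone genes tested (46 listed), 11 were higher, 2 lower and 32 did not pass, and in the trend-removed fit 11 were higher and 0 lower. This count rested on few libraries, with 4 higher without control TAC replicate 2, 4 in the control libraries alone and 17 without control TAC replicate 3. Hspa1l, a constitutive member of the HSP70 family, went from 21.3, 20.9 and 24.6 to 47.6, 74.2 and 56.9 (1.36 ± 0.25, adjusted p = 0.002; trend-removed 1.51). Hsp90aa1, the inducible HSP90, went from 238, 252 and 112 to 496, 690 and 340.3 (1.37 ± 0.28, adjusted p = 0.0046). Both groups of values stayed apart. The inducible Hspa1a, whose near-identical copy Hspa1b makes its count uncertain, had 3.2, 32.3 and 7.63 counts after sham and 134, 248 and 22.4 after TAC. Here control TAC replicate 3 fell below control sham replicate 2, and the change of 3.12 ± 0.87 (adjusted p = 0.026) was lost on leaving out sham 1 (0.0768), sham 3 (0.106), TAC 1 (0.0718) or TAC 2 (0.0816) of the controls. Hspa1b itself changed by 1.89 ± 0.99 (adjusted p = 0.20).

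The co-chaperone Dnaja4, which stimulates HSP70, went from 849, 812 and 487 to 1223, 1647 and 1008 (0.86 ± 0.20, adjusted p = 0.0068), with no overlap. Dnajb4, of the same family of co-chaperones, changed by 1.09 ± 0.26 (adjusted p = 0.011). Hsph1, the nucleotide exchange factor of the HSP110 family, changed by 1.13 ± 0.28 (adjusted p = 0.014), a call lost on leaving out sham 3 (0.0909), TAC 1 (0.0534) or TAC 2 (0.0595) of the controls, and in the trend-removed fit (0.073). In the opposite direction, Fkbp4, an HSP90 co-chaperone of steroid receptors, changed by −0.62 ± 0.11 (adjusted p = 0.0015) and Hspb2, a small heat shock protein of muscle, by −0.82 ± 0.15 (adjusted p = 0.0017). Neither passed in the trend-removed fit (0.061 and 0.15). Hspa1a, Dnaja4, Dnajb4 and Hsph1 were chosen after their values were seen.

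The heat shock element, facing copies of the site of heat shock factor 1, was searched as GAANNTTC or TTCNNGAA on either strand. Any window of a gene could hold it. It stood in 13.9% of the 10446 genes with a window, in 17 of 37 chaperone genes (45.9%) and in 6 of the 9 that were higher. Among all genes higher with TAC its share was 14.0%. Windows of Hspa1a, Hsph1 and Dnaja4 are shown for the number and place of their matches, in capitals. Hsph1 and Dnaja4 have 2 windows each, of which only a window with the motif is shown. In Hsph1 a pair of matches overlaps.
Hspa1a, chr17:34972107-34972406, minus strand: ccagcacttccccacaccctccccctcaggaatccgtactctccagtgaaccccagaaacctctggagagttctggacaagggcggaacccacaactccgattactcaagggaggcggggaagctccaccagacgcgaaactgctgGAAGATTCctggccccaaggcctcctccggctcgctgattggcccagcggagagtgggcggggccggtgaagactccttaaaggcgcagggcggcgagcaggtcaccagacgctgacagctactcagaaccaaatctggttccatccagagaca
Hsph1, chr5:149636266-149636565, minus strand: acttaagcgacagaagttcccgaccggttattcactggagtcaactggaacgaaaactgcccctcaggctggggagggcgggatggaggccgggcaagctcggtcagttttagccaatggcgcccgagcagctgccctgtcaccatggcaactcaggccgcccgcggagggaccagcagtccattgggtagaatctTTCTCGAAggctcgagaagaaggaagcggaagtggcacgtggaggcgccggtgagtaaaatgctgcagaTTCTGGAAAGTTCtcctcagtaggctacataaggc
Dnaja4, chr9:54699309-54699608, plus strand: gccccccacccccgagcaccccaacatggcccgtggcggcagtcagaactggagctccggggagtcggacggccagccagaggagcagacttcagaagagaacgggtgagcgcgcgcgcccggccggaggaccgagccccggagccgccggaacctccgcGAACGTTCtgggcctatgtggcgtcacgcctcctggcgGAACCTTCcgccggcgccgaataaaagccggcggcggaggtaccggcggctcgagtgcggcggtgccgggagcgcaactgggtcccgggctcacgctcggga

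Of 46 antioxidant and glutathione genes tested (48 listed), which detoxify peroxides and electrophiles, 20 were lower, 1 higher and 25 did not pass, and 14 were lower and 2 higher in the trend-removed fit; without control TAC replicate 1 the count lower was 12. The glutathione transferases led the list. Gstm1 went from 2806, 2884 and 3209 to 1588, 1365 and 1590 (−0.97 ± 0.12, adjusted p = 0.00016; trend-removed −0.65), and Gstm2 by −0.89 ± 0.12 (adjusted p = 0.00029); both belong to the mu class, whose members share sequence. Gstk1, the mitochondrial and peroxisomal kappa transferase, went from 1155, 1357 and 1520 to 659, 563 and 677 (−1.08 ± 0.14, adjusted p = 0.00019; trend-removed −0.83, adjusted p = 0.00023). In each of these genes every TAC value lay below every sham value. The single member that rose was Nox4, an NADPH oxidase that makes hydrogen peroxide, from 3.2, 5.7 and 5.93 to 50.8, 42.2 and 42 (2.98 ± 0.46, adjusted p = 0.00066; trend-removed 2.67).

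Heme and iron genes followed, with 7 of 28 lower and 2 higher (4 and 0 in the trend-removed fit). Alad and Urod, enzymes of heme synthesis, changed by −0.97 ± 0.14 (adjusted p = 0.00047) and −0.91 ± 0.155 (adjusted p = 0.0012). Red cell genes moved the same way beside them. Of 8 erythroid markers tested 3 were lower, 1 without control sham replicate 2 and 0 in the trend-removed fit, and the summed level of the list was 7500 to 9038 after sham and 4796 to 6454 after TAC; their part in the heme result was not tested.

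In branched-chain amino acid breakdown, which feeds carbon to the mitochondrion, 7 of 22 genes were lower, 0 higher and 15 did not pass, and 5 were lower in the trend-removed fit. Here control sham replicate 3 held the count down: without it 15 were lower. Bcat2, the mitochondrial aminotransferase that opens the pathway, went from 1876, 2013 and 1875 to 1307, 1139 and 1169 (−0.67 ± 0.12, adjusted p = 0.0015; trend-removed −0.43). Bckdhb, a subunit of the branched-chain ketoacid dehydrogenase, changed by −0.64 ± 0.12 (adjusted p = 0.0025). Both stayed apart between the groups.

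Of 38 genes of triglyceride storage and release 11 were lower, 1 higher and 26 did not pass, with 4 lower and 1 higher in the trend-removed fit; without control TAC replicate 2 the count lower was 7. Fitm1, a muscle protein of lipid droplet formation, went from 977, 1053 and 1418 to 454, 514 and 529 (−1.19 ± 0.15, adjusted p = 0.00013; trend-removed −0.65). Plin5, which tethers droplets to mitochondria, and G0s2, an inhibitor of the lipase ATGL, changed by −0.74 ± 0.13 (adjusted p = 0.0015) and −0.85 ± 0.16 (adjusted p = 0.0025), and neither passed in the trend-removed fit (0.14 and 0.21). Among phosphotransfer genes 4 of 9 were lower, 2 without control sham replicate 2 and 1 in the trend-removed fit; Ckmt2, the mitochondrial creatine kinase, changed by −0.60 ± 0.11 (adjusted p = 0.0016). In mitochondrial quality control Pink1, the kinase that marks damaged mitochondria, went from 11947, 12425 and 10562 to 6704, 6986 and 6531 (−0.79 ± 0.12, adjusted p = 0.00047; trend-removed −0.42, adjusted p = 0.043).

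Of 75 mitochondrial ribosomal protein genes tested (78 listed) 35 were lower, 0 higher and 40 did not pass, and 17 were lower in the trend-removed fit; without control TAC replicate 1 the count lower was 14. Mrps35, of the small subunit, went from 1076, 1103 and 1167 to 643, 665 and 784 (−0.68 ± 0.13, adjusted p = 0.0024; trend-removed −0.83). Mrpl14, of the large subunit, changed by −0.95 ± 0.17 (adjusted p = 0.0016; trend-removed −0.44).

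Of 56 genes of adrenergic and cAMP signalling, 11 were higher and 4 lower (4 and 3 in the trend-removed fit), and the count higher was 6 without control sham replicate 3 and 17 without control sham replicate 1. Adcy7, an adenylyl cyclase (chromosome 8, 88272403 to 88329962), went from 210, 182 and 238 to 709, 635 and 492 (1.53 ± 0.16, adjusted p = 2.5e-05; trend-removed 1.39). Pde8a, a phosphodiesterase specific for cAMP, and Grk5, a kinase that desensitises receptors, rose by 0.96 ± 0.14 (adjusted p = 0.00046) and 0.90 ± 0.14 (adjusted p = 0.0008). All 3 kept TAC above sham in every library. Edn3, an endothelin peptide, went from 29.8, 37 and 23.7 to 116, 297 and 212 (2.66 ± 0.36, adjusted p = 0.0003), while Ramp1, a receptor subunit for the vasodilator peptide CGRP, changed by −1.50 ± 0.25 (adjusted p = 0.00099).

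Among growth factors Hbegf, a ligand of the EGF receptor, went from 161, 176 and 148 to 450, 729 and 303 (1.52 ± 0.24, adjusted p = 0.00093; trend-removed 1.55). Insr, the insulin receptor, went from 1842, 1699 and 1394 to 3108, 3356 and 2911 (0.93 ± 0.15, adjusted p = 0.00077; trend-removed 0.46, adjusted p = 0.017). Rcan1, a calcineurin target and regulator, went from 1246, 1272 and 1117 to 4532, 7786 and 2287 (1.84 ± 0.32, adjusted p = 0.0025). In the TGF-beta and BMP list 13 of 52 were higher and 6 lower (7 and 2 in the trend-removed fit), among them Fstl3, a secreted inhibitor of activin, from 9.59, 12.3 and 14.4 to 45.4, 38.1 and 43.8 (1.74 ± 0.33, adjusted p = 0.0021). Of the Wnt list 6 of 47 were higher and 4 lower (12.8% and 8.51%), near the 11.0% and 10.6% of all genes. The count lower was 1 without control sham replicate 3, and the trend-removed fit gave 5 higher and 3 lower. The secreted antagonists Frzb (1.44 ± 0.21, adjusted p = 0.00044) and Dkk3 (2.11 ± 0.33, adjusted p = 0.00075) had the smallest p, and Dkk3, also on the atrial list, went from 43.7, 38.9 and 42.4 to 255, 168 and 144.

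Of 47 genes of calcium cycling 8 were higher and 6 lower (17% and 12.8%, next to 11.0% and 10.6% of all genes), against 1 and 4 in the trend-removed fit and 5 and 2 without control TAC replicate 2. Ryr2, the release channel of the sarcoplasmic reticulum, went from 19484, 12517 and 8766 to 29151, 25651 and 29582 (1.12 ± 0.23, adjusted p = 0.004), but did not pass once the trend was removed (0.49, adjusted p = 0.11). Hrc, a calcium-binding protein of the same store, fell from 21327, 21233 and 19050 to 13615, 13256 and 15682 (−0.54 ± 0.12, adjusted p = 0.0059). Potassium channels had 4 of 34 lower (11.8%, near the 10.6% of all genes) and 0 higher (2 and 0 in the trend-removed fit). Without control sham replicate 3 the count lower was 8. Kcnk3, a background channel, changed by −0.68 ± 0.12 (adjusted p = 0.0014). Ano10, of the anoctamin family of channels and scramblases, went from 1248, 1433 and 1301 to 437, 384 and 505 (−1.59 ± 0.18, adjusted p = 5.4e-05; trend-removed −1.53), clear of overlap. Of 32 genes of the intercalated disc 6 were higher and 3 lower (18.8% and 9.38%, next to 11.0% and 10.6% of all genes). The trend-removed fit gave 3 higher and 2 lower. Gja5, the connexin of the conduction system, changed by −0.97 ± 0.19 (adjusted p = 0.0027, trend-removed −0.93). Dsp, the desmosomal plakin, changed by 1.13 ± 0.24 (adjusted p = 0.0046, trend-removed adjusted p = 0.051).

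Of 62 cardiac transcription factors 11 were lower and 5 higher (7 and 2 in the trend-removed fit). The counts lower and higher were 7 and 2 without control TAC replicate 2, 9 and 2 without control TAC replicate 1, 11 and 2 without control sham replicate 3, 8 and 8 without control TAC replicate 3, and 11 and 12 without control sham replicate 1. Tbx5, a T-box factor of heart and forelimb that is also on the atrial list, went from 478, 373 and 311 to 186, 123 and 220 (−1.15 ± 0.19, adjusted p = 0.0011; trend-removed −1.19). Hopx, a homeodomain protein that binds no DNA, changed by −0.79 ± 0.14 (adjusted p = 0.0018; trend-removed −0.69). Nkx2-5 changed by −0.70 ± 0.13 (adjusted p = 0.002) and did not pass once the trend was removed (0.64).

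**Figure D4:**
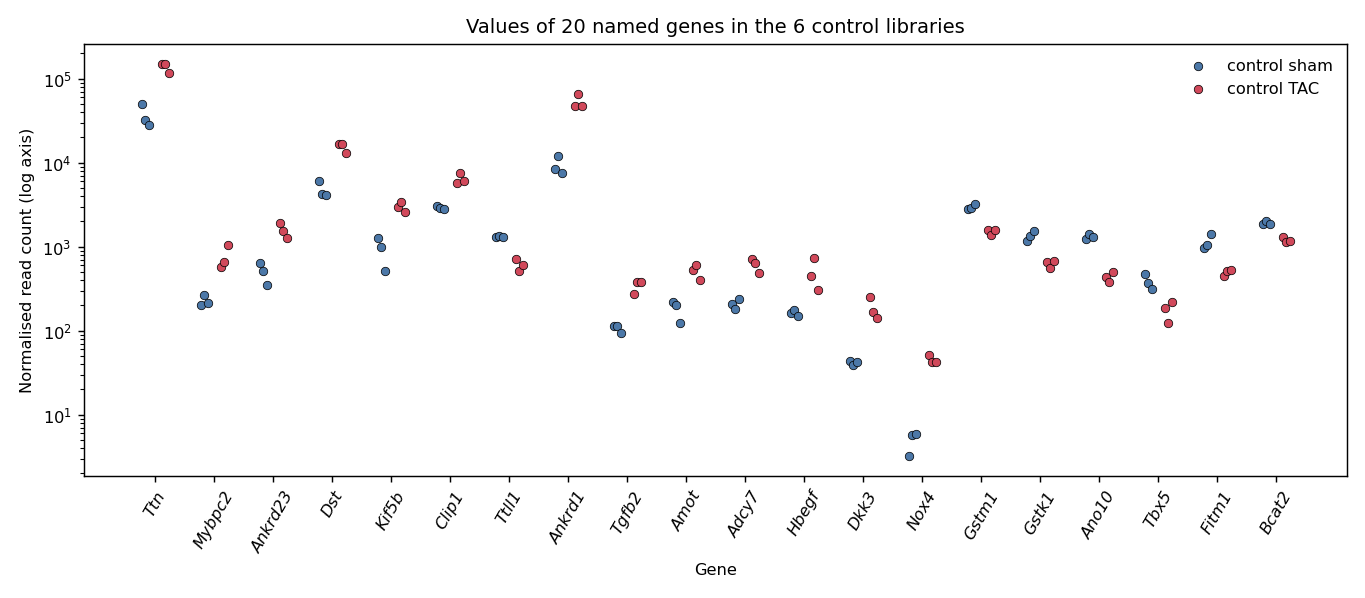
Normalised read counts (log axis) of 20 named genes in the 3 control sham and 3 control TAC libraries, 1 point per library. For each gene shown the points of the groups do not overlap.

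Other lists, like several of those above, had far fewer calls in the trend-removed fit. In that fit 4.28% of all genes were higher and 4.51% lower. Chromatin modifiers, whose transcripts are long (median 6808 bases), had 25 of 79 higher and 2 lower, and 5 and 3 in the trend-removed fit; without control sham replicate 2 the count higher was 13. Ash1l, a histone methyltransferase, went from 1014, 710 and 656 to 1610, 1505 and 1341 (0.93 ± 0.15, adjusted p = 0.00099) and kept 0.35 (adjusted p = 0.04). Ubiquitin ligases had 15 of 34 higher and 2 lower, and 4 and 3 in the trend-removed fit (9 higher without control TAC replicate 2). Kinases of hypertrophic signalling had 15 of 68 higher and 2 lower, then 3 and 1 (6 higher without control TAC replicate 2, 24 without control sham replicate 1). Genes of the dystrophin complex and costamere had 13 of 54 higher and 6 lower, then 4 and 2 (8 and 1 without control TAC replicate 1). Dmd, dystrophin itself, was among those that still passed, from 1015, 637 and 379 to 1742, 1813 and 1934 (1.54 ± 0.24, adjusted p = 0.00089; trend-removed 0.86, adjusted p = 0.0084).

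Cytosolic ribosomal proteins (median 930 bases) had 17 of 74 lower and 0 higher, 6 without control sham replicate 3, 28 without control sham replicate 1, and 4 in the trend-removed fit. Proteasome subunits had 9 of 42 lower and 0 higher, then 2 and 0 (5 lower without control sham replicate 2, 19 without control sham replicate 1). Lysosomal genes had 10 of 53 lower and 2 higher, then 1 and 2 (4 lower without control sham replicate 2). Psmb5, a catalytic subunit of the proteasome, went from 365, 399 and 457 to 182, 207 and 200.4 (−1.04 ± 0.22, adjusted p = 0.0047) and did not pass once the trend was removed (−0.59, adjusted p = 0.13). Map1lc3a, an LC3 protein of autophagosomes, fell from 6532, 6861 and 8407 to 3283, 3654 and 4112 (−0.98 ± 0.14, adjusted p = 0.00044; trend-removed −0.41, adjusted p = 0.032).

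Markers of other cells moved beside these results, and in bulk tissue fewer cells of a type and less RNA per cell cannot be told apart. Of 28 endothelial markers 9 were lower and 0 higher, 5 lower without control sham replicate 3 and 16 without control sham replicate 1, with a summed level of 44257 to 67944 after sham and 37237 to 38446 after TAC. Of 22 smooth muscle and pericyte markers 8 were lower and 0 higher, 4 lower without control sham replicate 3 (sums of 49301 to 52394 and 47866 to 52065). Antigen presentation genes had 8 of 26 lower and 0 higher, 3 without control sham replicate 2 and 13 without control sham replicate 1. In the trend-removed fit these counts were 2, 3 and 1. Resident fibroblast markers were split, 4 higher and 5 lower of 21 (2 lower without control sham replicate 3, 4 and 3 in the trend-removed fit), as shown by Pi16 (0.70 ± 0.15, adjusted p = 0.0053) and Clec3b (−1.29 ± 0.16, adjusted p = 0.00013). Macrophage markers had 1 higher and 2 lower of 37 (0 and 0 in the trend-removed fit), and the lymphocyte markers Cd3e and Cd79a had 10 and 29 reads in all 6 control libraries.

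Mesothelial markers, which cover the surface of the heart, were 7 lower and 0 higher of 13 (6 and 0 in the trend-removed fit), with sums of 489 to 1075 after sham and 238 to 393 after TAC; how much surface tissue each sample held is not known. Atrial markers were 5 higher and 2 lower of 10 (5 and 4 in the trend-removed fit). Bmp10, a defining atrial gene, had 2 reads in all 6 libraries, too few to compare. Sln, sarcolipin of atrial muscle, went from 1.07, 0.949 and 1.7 to 24.9, 40.2 and 69.9. The ventricular muscle list itself had 4 higher and 4 lower of 15 (1 and 2 in the trend-removed fit), with 2 lower without control TAC replicate 1 and 6 without control sham replicate 3, and its summed level was 1260200 to 1333840 after sham and 1084900 to 1184280 after TAC. The part of these cell types in the changes above was not tested.

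Outside the lists, the genes with the largest changes included several of muscle and tendon. Tnmd, tenomodulin of tendon cells, had 0 reads in every sham library and 68 in the 3 TAC libraries, at least 24.0-fold higher (against 3 counts over the sham group). Its values after TAC were 22.7, 21.6 and 24.2. Fgf6, a fibroblast growth factor of skeletal muscle, had 2.13, 9.49 and 7.63 counts after sham and 112, 280.2 and 60.6 after TAC (4.25 ± 0.58, adjusted p = 0.00034). Lrp8, a lipoprotein receptor that binds reelin, went from 7.46, 5.7 and 5.09 to 85.4, 108 and 88.6 (3.75 ± 0.41, adjusted p = 4.1e-05; trend-removed 3.77). The groups did not overlap in any of these genes, which the rule that named them required. In none of them did a control sham library reach the value set by the filter on low values.

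Further genes at the top were Dio2, the deiodinase that activates thyroid hormone (9.59, 13.3 and 6.78 to 258, 203.9 and 198; 4.38 ± 0.38, adjusted p = 4.0e-06), and Tbx15, a T-box factor of skeletal muscle (6.39, 7.6 and 3.39 to 71.4, 76.2 and 44.8; 3.28 ± 0.56, adjusted p = 0.0012). Nlrc3, a member of the NLR family of cytoplasmic sensors, went from 24.5, 39.9 and 28 to 257, 411 and 315 (3.37 ± 0.23, adjusted p = 6.3e-07). Vgll2, a TEAD cofactor of skeletal muscle, had 0, 1.9 and 3.39 counts after sham and 6.49, 94.8 and 21.4 after TAC. Its call ended without control TAC replicate 2 (adjusted p = 0.081). For Tbx15 and Vgll2, too, no control sham library reached the filter value of 10.

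At the other end stood Xpnpep2, a membrane aminopeptidase that cleaves bradykinin, from 26.6, 9.49 and 19.5 to 1.08, 3.09 and 1.86 (−2.64 ± 0.53, adjusted p = 0.0032; trend-removed −2.63). Rn7sk, the small nuclear RNA that restrains the elongation factor P-TEFb, went from 422, 311 and 393 to 45.4, 112 and 125 (−2.10 ± 0.30, adjusted p = 0.00074). Rn7sk has no poly(A) tail, while the libraries were made from polyadenylated RNA. Pla2g5, a secreted phospholipase, went from 679, 595 and 486 to 332, 118 and 120 (−1.78 ± 0.30, adjusted p = 0.0018), and Mmp9, the gelatinase of granulocytes and macrophages, from 43.7, 45.6 and 56.8 to 17.3, 13.4 and 10.3 (−1.78 ± 0.39, adjusted p = 0.0057). No sham value of these 4 genes was reached in a TAC library, which the rule that named them required. Calls of the also listed Ankrd63, Pnmt, Cfap61, Grin2d, Cyp2s1, Cd59b and Arhgap27os3 ended when at least 1 control library was left out.

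Whether TAC acted differently in heterozygotes than in knockouts was tested as the difference of the changes. It passed for 43 genes (0.309%), 41 of them higher in controls (2292 at an unadjusted p under 0.05), and for 8 without control TAC replicate 2, 755 without control sham replicate 1 and 283 without knockout TAC replicate 3. Leaving out any other library gave 14 to 102. All 43 had passed in the controls. Dst changed by 1.74 ± 0.27 more in controls (adjusted p = 0.01), Ttn by 2.16 ± 0.33 (adjusted p = 0.014) and Ankrd1 by 1.57 ± 0.27 (adjusted p = 0.02). For the other sarcomere, microtubule, chaperone and Hippo genes described here with values, the difference did not pass, which does not show that both genotypes changed alike. For transcripts over 8 kb the median change was 0.51 in controls and −0.03 in knockouts.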

How the data were processed

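The deposited table holds a signal value per gene and library, which the authors obtained by scaling reads with a size factor; the evidence is that each column consists of whole multiples of a single step (100% of values within 0.01 of a whole number). Per the labels, RNA was extracted with TRIzol and made into libraries with a stranded kit for polyadenylated RNA. STAR, featureCounts, SAMtools and the build GRCm38.p6 are named in the submitters' processing notes, without versions. Of 56350 gene IDs 55480 matched GENCODE M21, which gave names, lengths (longest coding transcript) and GC content. Reads per library numbered 10323605 to 13238934.

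limma-trend (limma 3.58.1, R 4.3.3, robust) was fitted to log2(value + 1) of 13916 genes in all 12 libraries with 4 group means, and p-values were adjusted by Benjamini-Hochberg. The trend-removed fit subtracted a loess curve (span 0.5) on log2 length and GC content from each library. Alternatives included edgeR 4.0.16 and DESeq2 1.42.0 on recovered reads, other filters and pseudocounts, and each library left out. On simulated data for control TAC against sham (13916 genes), the test called 22% of 82 genes altered 1.5-fold, 48.2% of 56 altered 2-fold and 87.1% of 62 altered 4-fold. It also called 5 of 13716 unchanged genes. Far fewer genes were altered there than passed in the data, and no library deviated as a whole, so these shares need not hold for the data. A simulated length trend, the same in each control TAC library and without a GC part, gave 907 false calls, and 10 after its removal. The comparison, the gene lists (78, of which 61 are described) and the tests were chosen with earlier results of these data known. Named by rule were Trp53cor1 and Cdkn1a, the 15 highest and 15 lowest changes among passing genes with a mean of at least 10, no overlap between the groups and no place among predicted genes, pseudogenes or the fetal, matrix, oxidative phosphorylation, mesothelial and atrial lists, the 6 highest and 6 lowest in the trend-removed fit, and up to 4 passing members per described list with the smallest p; genes chosen after their values were seen are marked. Some genes named by the rule are not reported here. Intervals of counts and floors (3 counts) cover counting error only. No libraries were left out of the main fit.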

Additional observations from a re-analysis of the deposited data

Results flagged for a closer look

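For 11 named genes the change with TAC differed between controls and knockouts by the test of the difference itself (limma-trend, adjusted p under 0.05), given as control minus knockout on the log2 scale. The difference was 3.64 ± 0.74 for Angptl7, 3.18 ± 0.54 for Dio2, 2.16 ± 0.33 for Ttn, 1.74 ± 0.27 for Dst, 1.57 ± 0.27 for Ankrd1, 1.26 ± 0.23 for Lrp1, 1.06 ± 0.22 for Ash1l and −1.15 ± 0.23 for Hey1. Among the genes chosen after their values were seen it was 3.58 ± 0.57 for Gm37084, 1.92 ± 0.34 for Malat1 and 1.86 ± 0.32 for Kcnq1ot1. Angptl7, an angiopoietin-like secreted protein, had 19.2, 10.4 and 4.24 counts in control sham and 99.5, 111 and 83.9 in control TAC libraries. Hey1, a Notch target, had 232, 230 and 242 counts after sham and 136, 146 and 99.8 after TAC.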

How the results depend on the processing

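With control libraries alone, 1433 genes passed (751 higher, 682 lower); removing the length trend gave 1856 (831 higher) and the length and GC trend 1222 (595 higher, 627 lower). Leaving out single libraries gave 1549 to 3656 genes, 732 to 1999 higher and 817 to 1657 lower. The difference between genotypes (43 genes) passed for 40 with edgeR, 480 with DESeq2, 1573 with voom and quality weights, 65 with a pseudocount of 5, 124 with no filter, 11 with the length trend removed, 16 with length and GC, and 8 to 755 with a library left out. The cause of these shifts was not tested. Whether replicate numbers pair the samples is not in the labels and stayed undecided, and the main fit treated the samples as unpaired. Deviations of equally numbered sham and TAC samples correlated at 0.0502, 0.158 and 0.0658, but not every sample correlated best with its own number. With the replicate number as a block 3151 genes passed (1636 higher, 1515 lower), and 47 for the difference. The difference in length rho between TAC and sham (0.52) stayed between 0.414 and 0.666 under the alternatives run for it, which do not include the fits with a trend removed. Among 273 named genes, 102 kept their direction but lost their call after removal of both trends, 2 more changed sign and lost it, and 47 lost it without control TAC replicate 2. Tomm40 changed from −0.44 to 0.052 with length and GC removed, and Hnrnpr from 0.54 to −0.18 with length and −0.20 with length and GC removed. Cdkn1a, the p21 gene (−0.39, adjusted p = 0.69 by limma-trend), lay between −1.03 and 0.44 with 1 library left out. With 3 libraries a group small changes can be missed. In the simulation, where few genes were altered, 22% of 1.5-fold changes were called.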
